A study of Oryza sativa with 12 samples.

Results

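The genes described here carry names of the cell cycle machinery of rice (Oryza sativa) and were read in shoots. Their names are those of the origin recognition complex, the replicative helicase, the factors at the replication fork, the cyclins, the cyclin-dependent kinases and their inhibitors. Some of the named cyclins and kinases have other roles, given below. Members were found by gene name in the array's annotation, as any symbol or synonym that reads as a cyclin, CDK, CDC, KRP, ORC, MCM, RPA, PCNA, E2F, DP or RNR gene. The names gave 67 genes. Of these, 5 matched DP by letters only (the starch enzymes DPE1 and DPE2, DPK3, DPK4 and DPNPase) and were left out, which left 62 members among the 17905 genes with a probe set of their own. No gene of the annotation matched E2F or RNR, and none was a DP partner of E2F. Each gene was read from 1 probe set, the one with the highest mean over the arrays, and 58 of the 62 had a mean above the median of all probe sets. The dimmer 4 were MCM8, ORC5, CYCB1-3 and RPA32C.

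In eukaryotes, the origin recognition complex (ORC) marks the places where DNA copying can start and loads the MCM ring, the helicase that later unwinds the DNA. Replication protein A (RPA) then covers the exposed single strands, and PCNA clamps the polymerase to its template. In plants, D-type cyclins with CDKA open the way into DNA synthesis, KRP proteins inhibit these kinases, and A- and B-type cyclins with CDKA and CDKB carry the cell into division. In a grass shoot, dividing cells sit in the shoot meristem and at the bases of growing leaves, while the expanded blade holds few of them.

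Transcripts were measured on 12 Affymetrix rice arrays, 3 biological replicates in each of 4 groups. The groups were Jijing88 in control medium, Jijing88 with alkali salts, K83 in control medium and K83 with alkali salts. The labels name both genotypes without further description and do not say which salts were used. Seedlings of 7 days, grown in hydroponic culture, were moved to new medium with or without 50 mM alkali salts, and whole shoots were taken after 24 h, with 10 shoots pooled for each array. Pooling averages over plants, so the spread between arrays is that between pools. In such bulk samples, fewer dividing cells and less RNA per dividing cell cannot be told apart. Values are log2 signals, so a difference of 1 is a doubling, and they compare groups within a gene but not levels between genes. Differences were tested with limma over 57258 probe sets, and a difference was called at a Benjamini-Hochberg adjusted p under 0.05.

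Arrays of one group correlated at 0.993 to 0.997 over all probe sets, and array medians lay between 5.12 and 5.18. All 6 green leaf markers of the labelled shoot tissue lay above the median of probe sets, with RBCS, the small subunit of Rubisco, at a mean of 14.53. Of 15 genes that mark the shoot meristem and young organs, 7 were dim, including OSH1, OSH3, OSH6, OSH43 and OSH71, whose means were 3.89 to 4.61. Their summed linear signal was 4355 to 4712 in Jijing88 control, 4419 to 4830 in Jijing88 alkali, 4831 to 5347 in K83 control and 4922 to 5106 in K83 alkali. In each medium the K83 range lay above the Jijing88 range. Such a sum is weighted to the brightest genes, such as YAB1 and LOG at means of 10.30 and 9.94. The median difference over the 15, K83 minus Jijing88, was -0.02 in control medium and 0.07 under alkali. In the single-gene tests, 1 of the 15 was higher in K83 in control medium (YAB5, also listed as YAB6) and 1 lower (SHO1). The shares over all probe sets were 6.18% and 5.44%. Under alkali 0 were higher and 1 was lower (SHO1), against 7.05% and 7.25%. The part of the meristem markers in the results was not tested.

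1 array stood apart from its group in these genes. For each array, the median over the 13 ORC and MCM genes of the deviation from each gene's mean was -0.73 in Jijing88 control replicate 1, against -0.12 and -0.23 in replicates 2 and 3. That array lay among the Jijing88 alkali arrays, which were at -0.57, -0.76 and -0.62. The K83 control arrays were at 0.71, 0.93 and 0.98, and the K83 alkali arrays at 0.07, 0.19 and 0.25. Both K83 groups thus lay above every Jijing88 array, alkali-treated K83 included.

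**Figure D1:**
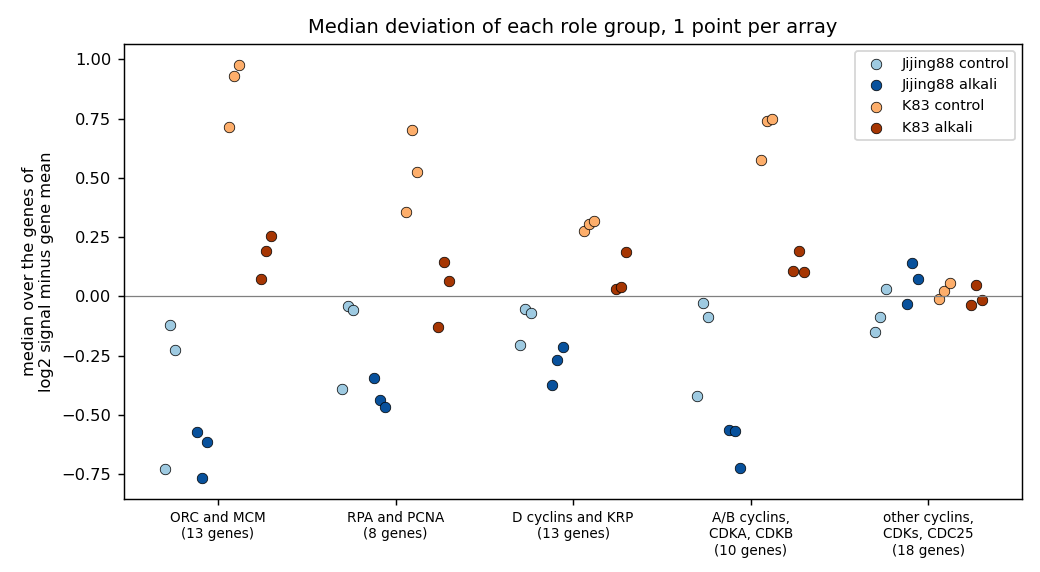
Median deviation of each role group on each array: for every gene the mean over the 12 arrays was subtracted from its log2 signal, and each point is the median over the genes of 1 role group on 1 array. The ORC and MCM points run from -0.76 to 0.98 with K83 control on top, and the other cyclins, CDKs and CDC25 stay between -0.15 and 0.14.

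In control medium, K83 shoots had higher signals of replication and division genes than Jijing88 shoots. Of the 62 members, 26 were higher in K83 and 1 was lower, against 6.18% and 5.44% of all probe sets. Among the probe sets above the median, the brighter ones, the higher share was 10.9%, and 26 of the 58 members there were higher. The median difference over the 62 members was 0.24, and over all probe sets 0.01. By role, 8 of 13 ORC and MCM genes, 4 of 8 RPA and PCNA genes, 6 of 13 D-type cyclins and KRP genes and 7 of 10 A- and B-type cyclins, CDKA and CDKB genes were higher. Of the 18 other cyclins, CDKs and CDC25 genes, 1 was (CDC25.2, also named as an arsenate reductase), a share of 5.56% that is near the background. The CDC25.2 call held in only 2 of the 12 fits with 1 array left out. Without Jijing88 control replicate 1, 25 members were higher in K83 and 1 was lower.

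ORC1 (LOC4340349), the largest subunit of the origin recognition complex, differed most. Its signal was 5.70, 6.23 and 5.79 in Jijing88 control and 7.91, 7.99 and 8.21 in K83 control. With alkali it was 5.78, 5.31 and 5.51 in Jijing88 and 7.10, 7.13 and 7.18 in K83. The genotypes did not overlap in either medium, and even the alkali-treated K83 arrays lay above every Jijing88 control array. K83 exceeded Jijing88 by 2.13 ± 0.15 (SE) in control medium, a 4.38-fold difference (limma adjusted p = 5.74e-07), and by 1.61 ± 0.15 under alkali, a 3.05-fold difference (limma adjusted p = 8.18e-06).

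ORC3 (LOC4348571), another subunit of that complex, was at 4.44, 5.03 and 4.83 in Jijing88 control and at 6.07, 6.33 and 6.59 in K83 control. K83 was higher by 1.57 ± 0.18 (SE), or 2.97-fold. The Jijing88 signals lay below the median of all probe-set means, 5.16, where a transcript is hard to tell from background, so this fold is read as a lower bound. ORC2, ORC4 and ORC5 were not called, with differences of 0.05, 0.22 and 0.59. Of the 5 ORC subunits measured, ORC1 and ORC3 were thus called, and the contrast between subunits was not itself tested.

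All 6 subunits of the MCM2-7 helicase were higher in K83 control, by 1.26 (MCM5) to 1.52 (MCM6). MCM6 was at 6.49, 7.05 and 6.93 in Jijing88 control against 8.13, 8.47 and 8.42 in K83 control. MCM8 and MCM9, relatives of the helicase that are known in animals for roles in DNA repair, were not called, with differences of -0.07 and 0.21. MCM8 was dim on every array, at a mean of 3.68.

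At the fork, RPA70B (LOC4332052), a large subunit of the single-strand binding protein, was at 7.96, 8.69 and 8.66 in Jijing88 control and 9.83, 10.10 and 10.01 in K83 control. The groups did not overlap, and K83 was higher by 1.54 ± 0.16 (SE), or 2.91-fold (limma adjusted p = 2.72e-05). Its paralog RPA70C was higher by 0.77, the middle subunit RPA32A by 0.94 and the clamp PCNA by 0.95. RPA70A, RPA32B, RPA32C and RPA14 were not called, with differences of 0.21 to 0.52.

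Among the G1 genes, CYCD2-2, a D-type cyclin, was higher in K83 control by 1.31 ± 0.11 (SE), or 2.47-fold, and CYCD4-2, CYCD6-1 and CYCD3-1 were higher by 0.90, 0.76 and 0.29. The CYCD3-1 call held in only 1 of the 12 fits with 1 array left out. The inhibitors moved in opposite directions. KRP5 and KRP6 were higher in K83 control, by 0.60 and 0.47, and KRP4 (LOC4348872) was lower by 0.52. A second, dim probe set of KRP6 gave -0.13 there and was not called. KRP4 was at 9.45, 9.37 and 9.27 in Jijing88 control and 8.72, 8.85 and 8.97 in K83 control, with no overlap. It was the only member called lower in K83 control. Of the division genes, CYCA2-1 was higher by 1.27, CYCA3-2 by 1.08, CYCB1-1 by 1.06, CDKB2-1 by 0.89, CYCB2-2 by 0.88, CYCB2-1 by 0.80 and CDKA-2 by 0.72. CDKA-1, CYCA1-4 and CYCB1-3 were not called.

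**Figure D2:**
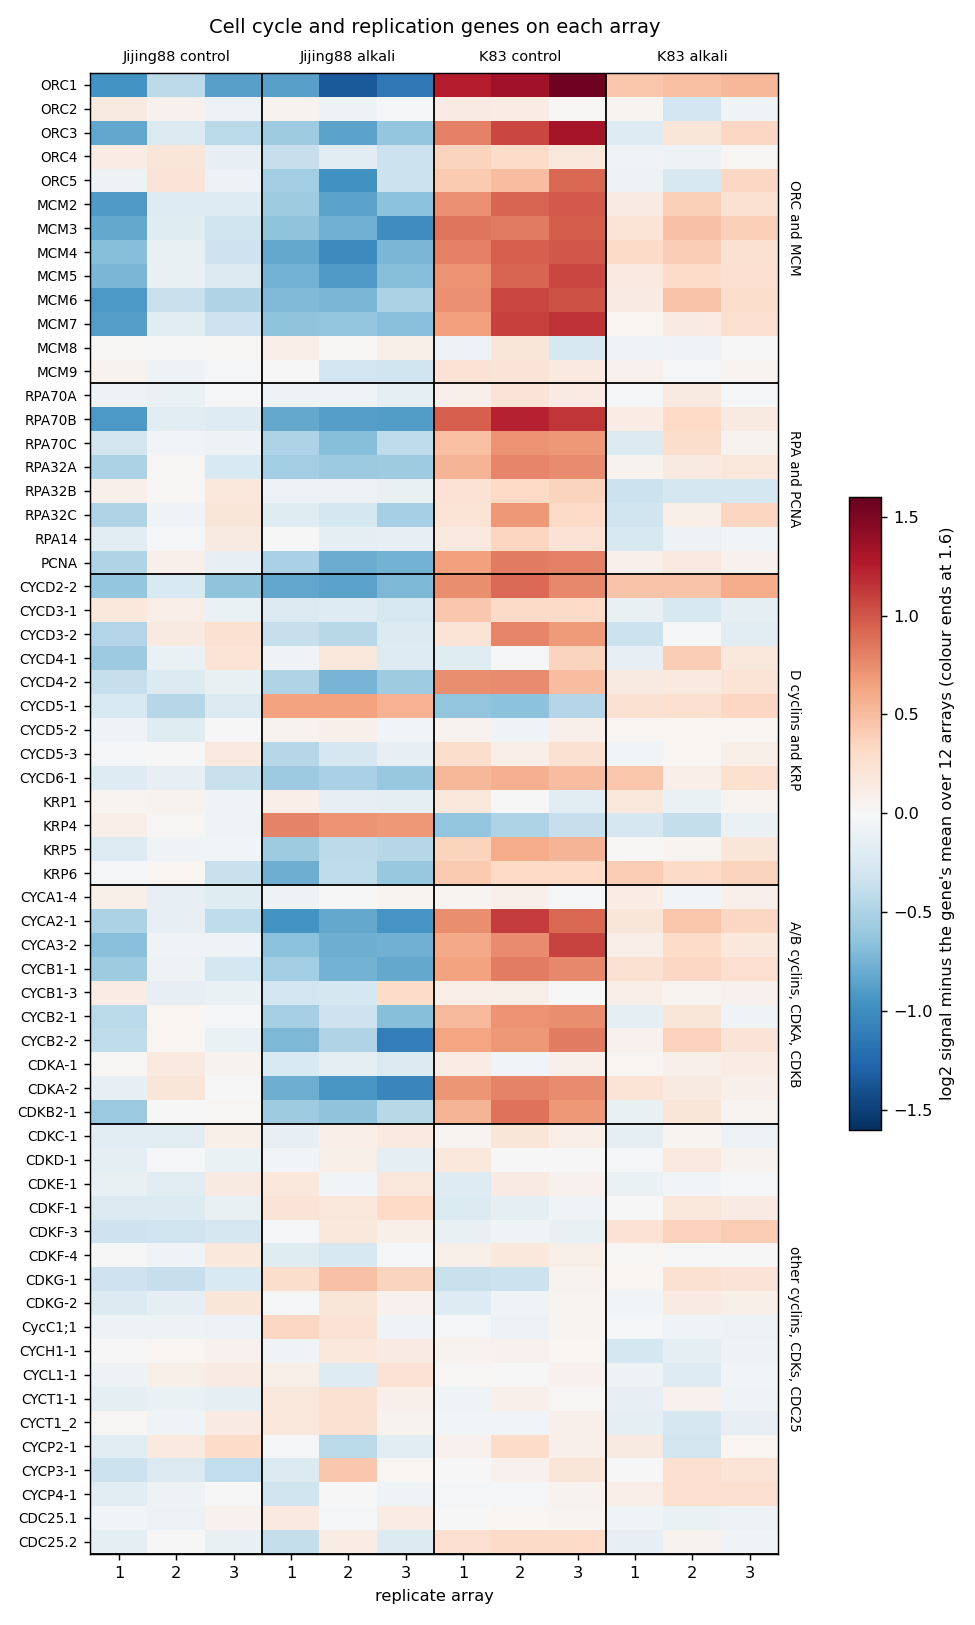
Signal of the 62 genes on the 12 arrays: each cell is the log2 signal minus that gene's mean over all arrays, rows are grouped by role and columns by group and replicate. Red in K83 control against blue in Jijing88 runs through ORC1, ORC3, MCM2 to MCM7, RPA70B, PCNA and the A- and B-type cyclins, while KRP4 is red in Jijing88 alkali and blue in K83 control, and CYCD5-1 is red with alkali in both genotypes.

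Under alkali the genotypes differed in much the same members. K83 was higher in 29 and lower in 3, against 7.05% and 7.25% of all probe sets. Among the brighter ones, 28 of 58 members were higher, against 12.1% of brighter probe sets. Of the members higher in K83, 24 were called in both media, which is 92.3% of the control list and 82.8% of the alkali list. Effects in the media, which share no array, had a Pearson r of 0.91 and a Spearman rho of 0.86 over the 62 members, given as a description because the members share their arrays. The overlap and correlation over all probe sets were not computed, so these values are not read as particular to the members. The median difference was 0.25 over the members and 0.02 over all probe sets.

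CYCD2-2 differed by nearly the same amount with alkali as without. It was at 5.90, 5.88 and 6.01 in Jijing88 alkali and 7.18, 7.19 and 7.32 in K83 alkali, higher in K83 by 1.30 ± 0.11 (SE). CYCA2-1 (1.23), MCM4 (1.17), MCM3 (1.16) and CDKA-2 (1.07) followed ORC1 and CYCD2-2 in size, and RPA70B was higher by 1.06. ORC3 was higher by 0.79, again a lower bound because its Jijing88 arrays lay below 5.16. ORC5 and CDKA-1 were higher by 0.63 and 0.28 under alkali and not called in control medium, and for neither was the change between media called. KRP4 was lower in K83 by 0.98 ± 0.10 (SE), or 1.98-fold (limma adjusted p = 1.49e-05). Its arrays read 10.13, 10.06 and 10.04 in Jijing88 alkali and 9.08, 8.97 and 9.24 in K83 alkali, without overlap. CYCD5-1 and CYCT1_2 were also lower in K83 under alkali, both by 0.34.

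**Figure D3:**
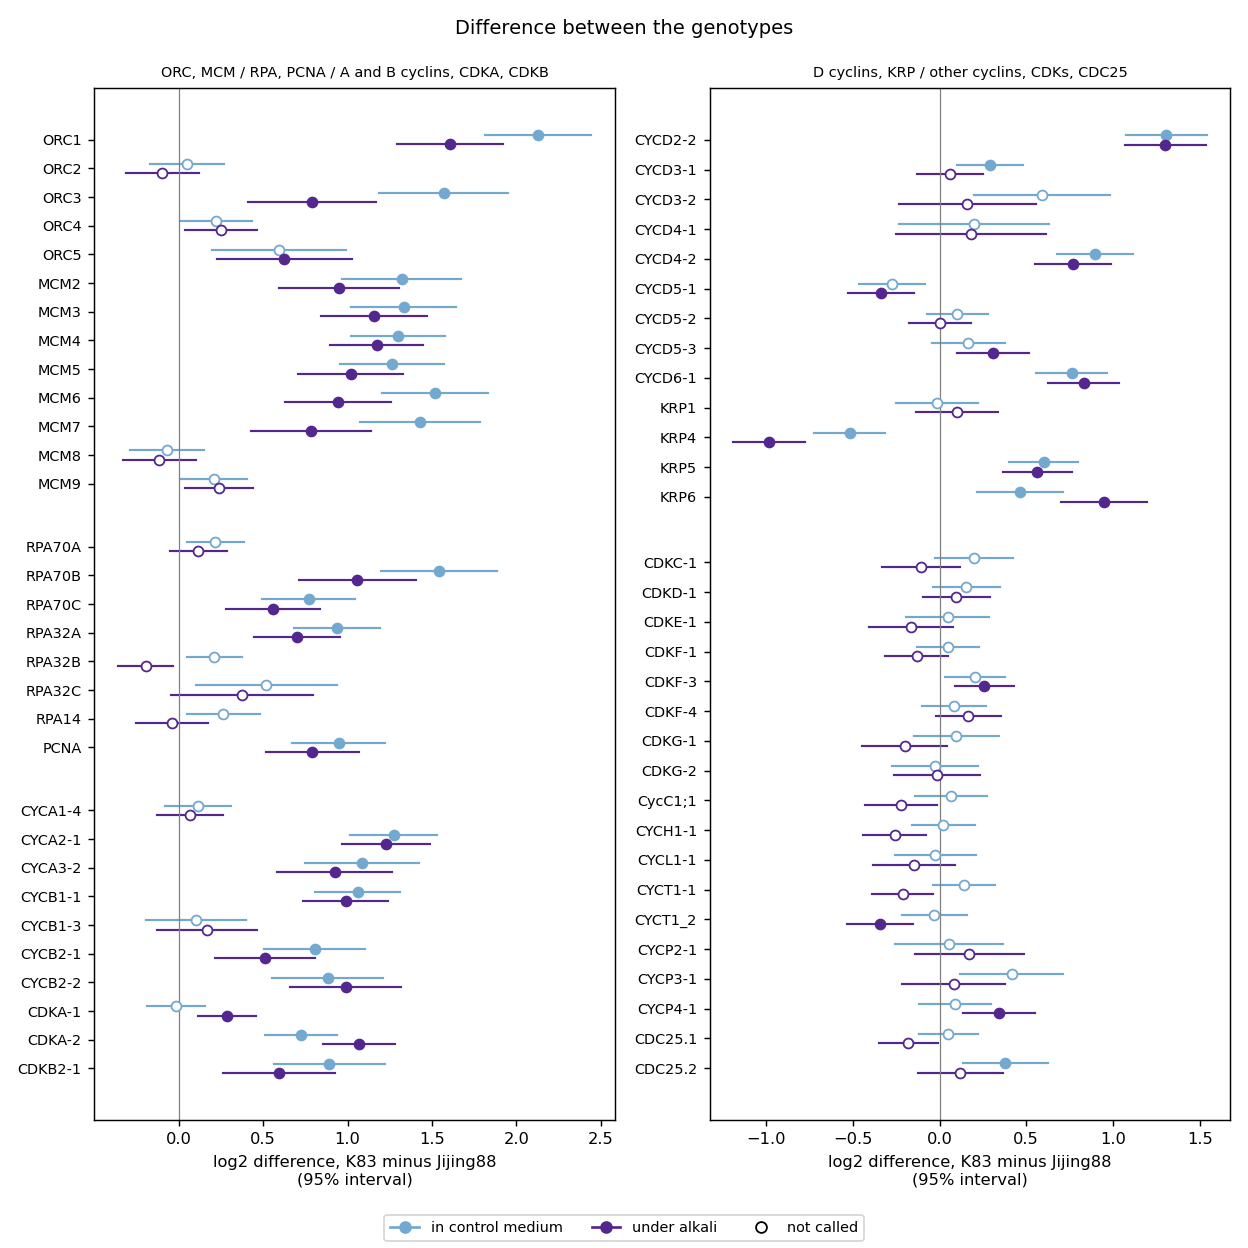
Difference between the genotypes for each gene, as K83 minus Jijing88 on the log2 scale with its 95% interval, in control medium (light) and under alkali (dark); filled points are called at a limma adjusted p under 0.05. ORC1 lies farthest right in both media, at 2.13 and 1.61, and KRP4 farthest left, at -0.52 and -0.98.

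With alkali, K83 shoots had lower signals of replication and division genes. Of the 62 members 24 fell and 2 rose, against 3.85% and 2.61% of all probe sets. All 24 that fell were among the 58 brighter members, against 7.21% of brighter probe sets. The median over the members was -0.25, and over all probe sets -0.01. Those that fell were 8 of 13 ORC and MCM genes, 6 of 8 RPA and PCNA genes, 4 of 13 D-type cyclins and KRP genes, and 6 of 10 A- and B-type cyclins, CDKA and CDKB genes. None of the 18 other cyclins, CDKs and CDC25 genes fell, and 6 of these had an unadjusted limma p under 0.05 in either direction.

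ORC3 fell by 0.96 ± 0.18 (SE) in K83, from 6.07, 6.33 and 6.59 to 5.06, 5.46 and 5.60, a 1.95-fold difference (limma adjusted p = 0.00584). Its lowest alkali array lay below the median of all probe-set means, 5.16, so background may make this fall look smaller than it was. RPA70B fell by 0.92 ± 0.16 (SE), from 9.83, 10.10 and 10.01 to 8.99, 9.19 and 9.01. ORC1 fell by 0.90 ± 0.15 (SE), its alkali arrays spanning only 7.10 to 7.18. In all these genes every alkali array lay below every control array.

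Every subunit of the MCM2-7 helicase fell, by 0.53 (MCM3) to 0.83 (MCM7). MCM7 went from 8.65, 9.08 and 9.14 to 8.02, 8.12 and 8.25. PCNA fell by 0.66, from 10.71, 10.89 and 10.87 to 10.14, 10.21 and 10.13. RPA32B, which did not pass the test between the genotypes, fell by 0.60 (limma adjusted p = 0.000476), from 9.86, 9.95 and 9.98 to 9.29, 9.35 and 9.35. RPA70C, RPA32A and RPA14 fell by 0.59, 0.57 and 0.37. The 5 ORC and MCM genes that were not called, ORC2, ORC4, ORC5, MCM8 and MCM9, ranged from -0.61 to 0.01 on the probe sets used. A second probe set of ORC4 was called lower, as given below.

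Of the D-type cyclins, CYCD3-2, CYCD3-1 and CYCD4-2 fell by 0.75, 0.52 and 0.49 in K83. CYCD3-2 went from 6.71, 7.27 and 7.18 to 6.14, 6.46 and 6.31. The inhibitor KRP5 fell by 0.42, and KRP6 was at -0.00037 with a 95% interval of -0.25 to 0.25. Among division genes CYCB2-1 fell by 0.67, from 8.80, 9.0 and 9.03 to 8.14, 8.48 and 8.22. CDKB2-1, a plant-specific kinase of dividing cells, fell by 0.66, from 9.52, 9.85 and 9.68 to 8.86, 9.17 and 9.03. CYCA3-2, CYCA2-1, CDKA-2 and CYCB1-1 fell by 0.63, 0.60, 0.60 and 0.47. The K83 count rests in part on single arrays. Without K83 control replicate 2 it was 7 lower and 2 higher, and no MCM gene was called. Without K83 control replicate 3 it was 13 lower, and without K83 alkali replicates 1 or 3 11 and 14 lower. ORC3, RPA70B, ORC1, PCNA, RPA32B, CDKA-2 and CYCD3-1 were called lower whichever of the 12 arrays was left out.

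Jijing88 shoots under alkali had 12 members lower and 6 higher, against 4.07% and 4.29% of all probe sets. Of the 58 brighter members 11 were lower, against 7.43% of brighter probe sets. All 6 that rose were brighter members, and the share of brighter probe sets that rose was not computed. The median was -0.20 over the members and -0.02 over all probe sets. CDKA-2 (LOC4328135), a kinase of the family that acts with D- and A-type cyclins, fell most, by 0.94 ± 0.10 (SE), or 1.92-fold (limma adjusted p = 8.58e-05). It went from 8.40, 8.73 and 8.54 to 7.75, 7.60 and 7.49, with no overlap, and its 2 further probe sets read -1.08 and -0.79. The probe set used is one whose name marks probes that can match other transcripts, and the further ones carry no such mark. In K83 it fell by 0.60, from 9.23, 9.32 and 9.28 to 8.75, 8.68 and 8.61.

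The other members that fell in Jijing88 were ORC5 (by 0.64), CYCB2-2 (0.61), CYCA2-1 (0.56), PCNA (0.51), KRP6 (0.48), MCM4 (0.48), KRP5 (0.38), CYCD4-2 (0.37), ORC4 (0.35), CYCD6-1 (0.34) and CDKA-1 (0.28). CYCB2-2 went from 9.15, 9.58 and 9.44 to 8.83, 9.07 and 8.44. ORC5 was dim, at 4.87, 5.16 and 4.86 in control and 4.39, 3.98 and 4.60 with alkali. PCNA went from 9.57, 10.14 and 9.92 to 9.53, 9.27 and 9.30, its alkali replicate 1 only just below its control replicate 1.

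These falls depended on which Jijing88 control arrays were used. Without control replicate 2 CDKA-2 was the 1 member called lower, and without replicate 3 there were 6. Without control replicate 1, the array that stood apart, 16 were lower: MCM2, MCM3, MCM4 and MCM5, RPA70B, RPA32A and PCNA, CYCD4-2 and KRP5, and the mitotic genes CYCA2-1, CYCA3-2, CYCB1-1, CYCB2-1, CYCB2-2, CDKA-2 and CDKB2-1. Leaving out any other array gave 5 to 10 lower, and a fit of the Jijing88 arrays alone called 2 lower and 4 higher. In the fit of all 4 groups, ORC1, ORC3 and RPA70B were not called in Jijing88, with differences of -0.37, -0.18 and -0.43 and 95% intervals of -0.69 to -0.06, -0.56 to 0.20 and -0.78 to -0.09. RPA70B was called without control replicate 1, at -0.67 (limma adjusted p = 0.00234).

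6 members rose in Jijing88, and 5 of them, all but CYCT1-1, were called whichever array was left out. CYCD5-1 (LOC4333455), a D-type cyclin, rose by 0.92 ± 0.09 (SE), or 1.89-fold (limma adjusted p = 4.94e-05). Its arrays went from 7.28, 7.06 and 7.31 to 8.17, 8.17 and 8.08. In K83 it rose from 6.90, 6.87 and 7.06 to 7.77, 7.77 and 7.85, by 0.86 ± 0.09 (SE), or 1.81-fold (limma adjusted p = 0.000127). Every alkali array of either genotype lay above every control array. The close paralogs by name did not pass the test: CYCD5-2 was at 0.12 in Jijing88 and 0.02 in K83, and CYCD5-3 at -0.33 and -0.18. CYCD5-1 thus moved against the other D-type cyclins that were called, all of which fell.

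KRP4, an inhibitor of the kinases, rose in Jijing88 by 0.71 ± 0.10 (SE), or 1.64-fold (limma adjusted p = 0.000499), from 9.45, 9.37 and 9.27 to 10.13, 10.06 and 10.04. In K83 it was at 0.25 with a 95% interval of 0.04 to 0.46 and was not called. This pattern comes from its bright probe set. A second, dim probe set at a mean of 3.98 gave -0.19 in Jijing88 and 0.13 between the genotypes under alkali, neither called. Of the remaining kinases, CDKG-1 rose by 0.68 in Jijing88, from 8.71, 8.67 and 8.80 to 9.32, 9.50 and 9.39, CDKF-1 by 0.42, from 9.88, 9.89 and 9.99 to 10.31, 10.29 and 10.43, and CDKF-3 by 0.38. CDKF kinases are known in Arabidopsis as activators of other CDKs. CYCT1-1, of a cyclin class that partners CDKC in transcript elongation, rose by 0.30. CDKF-3 also rose in K83, by 0.44, from 8.86, 8.91 and 8.86 to 9.22, 9.35 and 9.39.

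**Figure D4:**
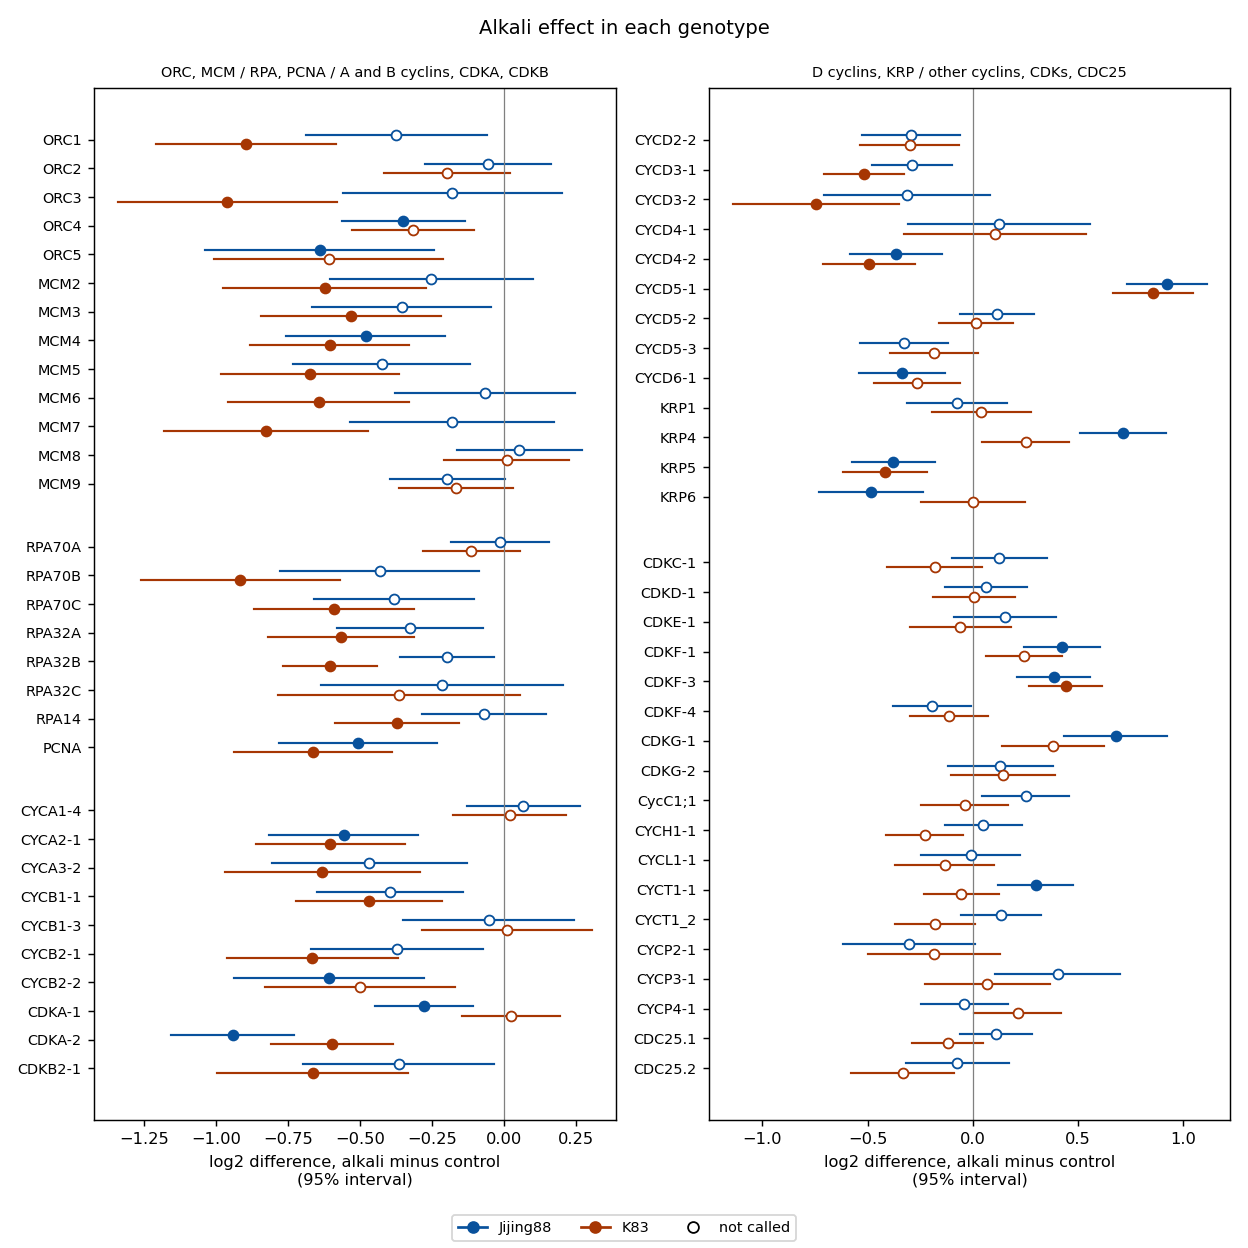
Alkali effect of each gene in each genotype, as alkali minus control on the log2 scale with its 95% interval; filled points are called at a limma adjusted p under 0.05. K83 points lie left of 0 for most replication and division genes, down to -0.96 for ORC3, and CYCD5-1 lies at the right in both genotypes, at 0.92 and 0.86.

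The alkali effects in the genotypes share no array and could be set against each other. Of the members that fell, 6 were called in both genotypes: CDKA-2, CYCA2-1, CYCD4-2, KRP5, MCM4 and PCNA. They are 50% of the 12 in Jijing88 and 25% of the 24 in K83. CYCD5-1 and CDKF-3 rose in both. Across the 62 members the effects had a Pearson r of 0.78 and a Spearman rho of 0.74, again over members that share arrays. Here too the overlap and correlation over all probe sets were not computed.

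The difference between the effects, K83 minus Jijing88, was called by limma for 0 of the 62 members, against 0.629% of all probe sets. At an unadjusted p under 0.05 there were 12, and the lowest adjusted p was 0.107 (RPA32B, -0.41). The median difference was -0.15 over the members and -0.00053 over all probe sets, and -0.08 over the members without Jijing88 control replicate 1. ORC3 was at -0.78 with a 95% interval of -1.32 to -0.24, MCM7 at -0.64 with one of -1.14 to -0.14, and ORC1 at -0.52 with one of -0.97 to -0.08. For ORC3 the Jijing88 arrays lay below 5.16 in both media, so a fall there could be hidden by background and its difference between the effects is not bounded. In the other direction KRP6 was at 0.48, CDKA-2 at 0.35 and CDKA-1 at 0.30. The test thus separated the alkali effects of the genotypes for no single member, and a p above the threshold does not show that they were alike.

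**Figure D5:**
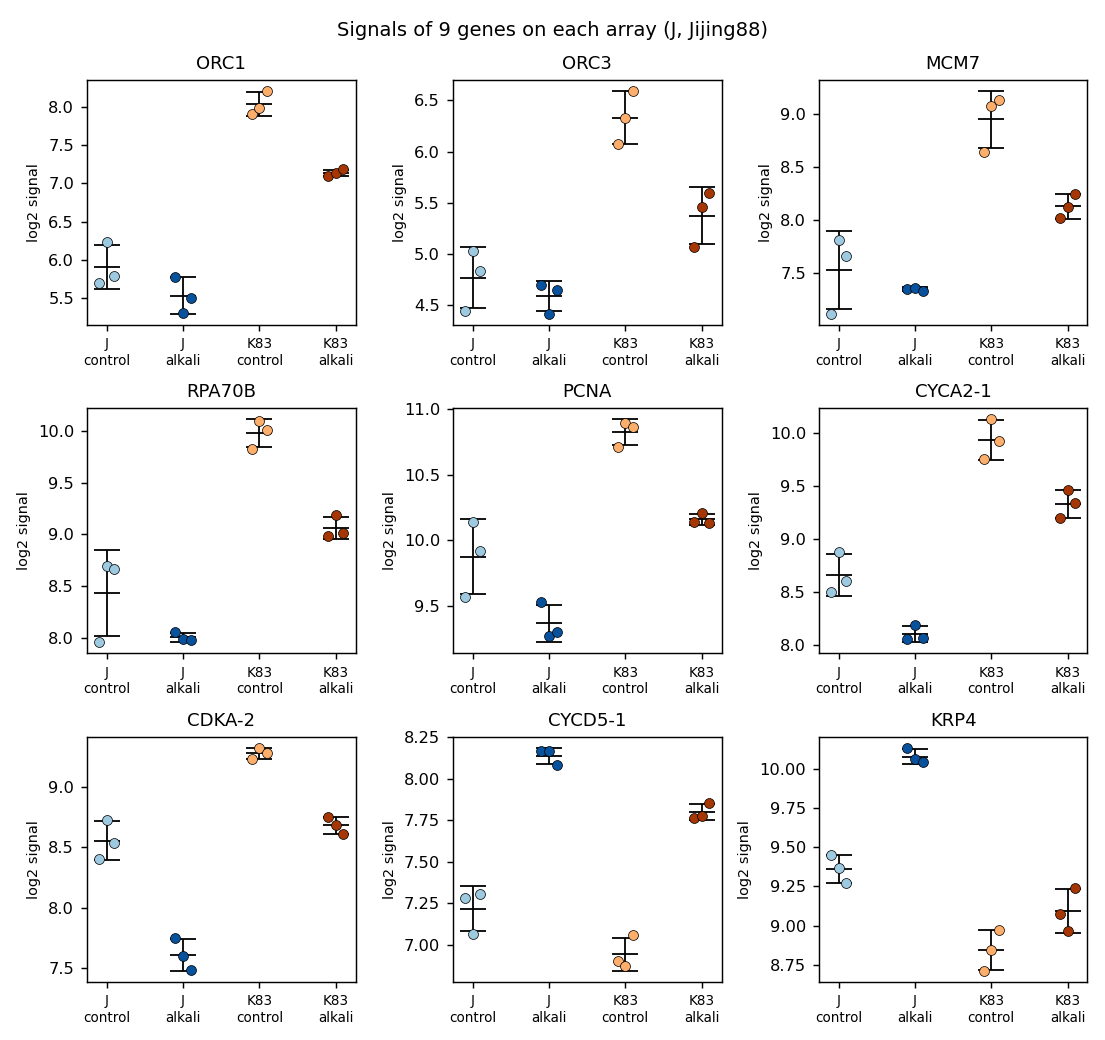
Log2 signal of 9 genes on each of the 12 arrays, with the group mean and 1 SD as bars (n = 3 arrays per group); each panel has its own axis. ORC1 separates the genotypes in both media, CYCD5-1 separates the media in both genotypes, and KRP4 is highest in Jijing88 alkali, between 10.04 and 10.13.

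Several members carry more than 1 probe set, 14 in all, and in some the others read differently. A second probe set of CDKE-1, a kinase of the Mediator complex, rose by 3.15 in Jijing88 (limma adjusted p = 0.000934), while the brighter one read 0.15 there. For CYCD5-2, the second probe set was higher in K83 by 1.21 in control and 0.88 under alkali, and fell by 0.74 in K83 with alkali, against 0.10, 0.0024 and 0.02 for the one used. A second probe set of CYCB2-2 fell by 0.86 in K83, where the one used was at -0.50 and was not called. For ORC4 the probe sets differed in which genotype was called. The second, at a mean of 5.94, fell by 0.62 in K83 (limma adjusted p = 0.0393) and read -0.09 in Jijing88, not called. The one used was called in Jijing88, at -0.35, and not in K83, at -0.32.

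Cell cycle, replication and growth genes outside the name rule were read as a separate list of 44, chosen by name. The list also holds GRF and PCF growth genes, H2B histones and DMC1, so it is broader than the members' pathway. In control medium 15 of them were higher in K83 and 0 lower, against 6.18% and 5.44% of all probe sets, with a median of 0.23. These 15 include the growth genes GRF1, GRF6, GRF7, GRF10, PCF5, PCF6 and PCF7. Of the 44, 2 were dim, and among brighter probe sets the higher share was 10.9%. Under alkali 8 were higher and 4 lower (CKS1, POLL, RFC2 and TOP6B), against 7.05% and 7.25% of all probe sets, with a median of 0.07. The lower share was near that background. RBR1, a homolog of the retinoblastoma protein that restrains entry into DNA synthesis, was higher in K83 by 1.10 in control medium and 1.07 under alkali. RBR2, another such homolog by name, was not called, at 0.03 in control medium and -0.02 under alkali. RSS1, a rice regulator of dividing cells under salt stress, was higher by 1.22 and 0.81 in that order. The TCP-family factor PCF5 was higher by 1.30 and 0.95. With alkali, 11 of the 44 fell in K83 and 0 rose, against 3.85% and 2.61% of all probe sets. Among brighter probe sets, 7.21% fell. The 11 included TOP6A3 (by 1.03), RSS1 (0.81), the polymerase delta subunit POLD2 (0.67) and the clamp loader subunit RFC5 (0.65). In Jijing88, 2 fell (PCF2 by 0.51 and TOP6A3 by 0.38) and 1 rose (CKS1 by 0.70), shares near the background of 4.07% and 4.29% of all probe sets.

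RNA quality was read from the arrays' control probe sets. The difference between the 3′ and 5′ actin probe sets averaged 3.60 in Jijing88 control, 3.68 in Jijing88 alkali, 3.46 in K83 control and 3.54 in K83 alkali. The control arrays of the genotypes overlapped, at 3.40 to 3.75 and 3.32 to 3.63, and the alkali arrays did not, at 3.63 to 3.76 and 3.51 to 3.55. The same difference for GAPDH averaged 0.30, 0.38, 0.47 and 0.47 in that order of groups. The 28S rRNA probe set averaged 10.55, 11.37, 10.99 and 11.05, with 10.50 to 11.93 among the Jijing88 alkali arrays. Green leaf transcripts moved in part. Of the 6 markers, 3 rose with alkali in Jijing88 and 0 fell, against 4.29% and 4.07% of all probe sets. These were CAB2R, LHCP and PORA, for light-harvesting proteins and a chlorophyll enzyme. RBCS, RCA and PORB were not called there, at -0.12, -0.22 and 0.15. PORA fell in K83, and CAB2R, LHCP and PORA all differed between the effects. Between the genotypes, PORA was higher in K83 control by 1.13, and under alkali 4 of the 6 green leaf markers were lower in K83 and 1 was higher. Of 4 root markers, 1 (LSI2) was dim, and their summed linear signal was 841 to 952 in Jijing88 control, 1075 to 1431 in Jijing88 alkali, 677 to 785 in K83 control and 641 to 697 in K83 alkali. IRT1, an iron transporter, rose in Jijing88 and was lower in K83 in both media, LSI1 was lower in K83 under alkali, and SHR1 fell by 0.64 in K83 with alkali. Of 5 seed markers 3 were dim, and GLUA2 rose by 0.40 in Jijing88. The part of these measures in the results was not tested.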

How the data were processed

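The authors deposited 1 table of log2 signals, 1 value per probe set and array. RMA and limma are named, without versions or roles, per the submitters' processing notes, and the log base was read from the values. No further normalization was applied. After 123 control probe sets were left out, 57258 were fitted with limma 3.58.1 in R 4.3.3 as 4 group means over all 12 arrays, with 8 residual degrees of freedom and no covariates. Tests were two-sided, over 5 contrasts, with Benjamini-Hochberg adjustment over all probe sets of each. Tables were made with Python 3.11.15 and plots with matplotlib 3.10.9. The pipeline was tested on simulated data. There is no depth to report for arrays, and 3 per group set the precision.

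Genes were named from the array's annotation and a RefSeq gene table, used for names only because the array's genome build is not given in the sources used here. Sequences were not analysed here. The members and lists were chosen with earlier results of these data known. Values on every array were to be printed for ORC1, ORC3, RPA70B, CYCD5-1 and up to 10 further called members per alkali contrast by size, and up to 6 called members per direction were to be named between the genotypes. The array values of RPA32B, CYCD2-2 and CDKF-3, and the further called members named by role between the genotypes, go beyond that rule. The labels call the replicates biological and do not say what equal numbers share. Of 18 pairs of equal number, 7 had deviations correlated above 0.1 (range -0.08 to 0.22). Pairs of unequal number were not set beside them, so this does not settle whether equal numbers share anything. The main fit did not pair arrays by number, and a fit with a replicate block is among the alternatives. The alternatives were a replicate block, median centring, a filter on dim probe sets, an intensity trend, array weights, other probe sets, fits of only the groups compared, each array left out, and, chosen after seeing the data, the 5 letter matches counted in.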

Additional observations from a re-analysis of the deposited data

Results flagged for a closer look

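By limma's test of the difference itself, the alkali effect differed between the genotypes for 3 of the 44 cell cycle, replication and growth genes outside the name rule. Over all probe sets the share was 0.629%. The alternatives described below were run for the members only and not for these genes. CKS1, a small CDK-binding protein, differed by -0.67 (K83 effect minus Jijing88 effect, adjusted p = 0.0253). Its effect was 0.70 in Jijing88, where the arrays went from 9.88 to 9.91 up to 10.54 to 10.68, and 0.02 in K83. TOP6A3, a topoisomerase subunit by name, differed by -0.65 (adjusted p = 0.0306), with effects of -0.38 in Jijing88 and -1.03 in K83. POLD1, the catalytic subunit of DNA polymerase delta, differed by -0.58 (adjusted p = 0.0447), with effects of 0.20 in Jijing88 and -0.38 in K83. POLD1 was at 8.09 to 8.24 in Jijing88 control, 8.28 to 8.39 in Jijing88 alkali, 8.62 to 8.85 in K83 control and 8.33 to 8.36 in K83 alkali, so that the genotypes overlapped under alkali and not in control medium.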

How the results depend on the processing

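Over 106 results (every called member of each contrast and the 4 markers under alkali) and 20 alternatives, 1862 outcomes kept direction and call, 252 lost the call, 1 gained it and 3 reversed. Some kept outcomes were fixed in advance, because a member with 1 probe set has no dimmer one to read. Leaving out an array of a group not compared changes the estimated spread but not the difference. The total therefore overstates how far the results were put to the test. The reversals came from dim second probe sets: KRP4 gave -0.19 with alkali in Jijing88 and 0.13 between the genotypes under alkali, and KRP6 gave -0.13 between the genotypes in control. Of the lost calls 209 came from leaving out an array and 17 from fitting only the groups compared. The count of members called with alkali in Jijing88 was 18, and 6 in a fit of only its own arrays. The K83 median of -0.25 was -0.35 with each gene's dimmest probe set and -0.19 with the 5 letter matches counted in. With 1 array left out, the called members ranged from 6 to 21 (Jijing88 alkali), 9 to 27 (K83 alkali), 25 to 28 (genotypes in control) and 24 to 32 (genotypes under alkali), and were 0 throughout for the difference between the effects. The Jijing88 median then lay between -0.23 and -0.13 the K83 median between -0.28 and -0.23, and that of the difference between the effects between -0.18 and -0.08. With the replicate block 16, 28, 0, 29 and 32 members were called in the 5 contrasts, in the order Jijing88, K83, difference, control and alkali, which moved no count by over 1.5 times and ended 4 single calls. The difference between the effects has no fit of only 2 groups. Dim members, among them ORC5 and ORC3 in Jijing88, are limited by background, and 3 pools per group limit the rest.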
